A study of Homo sapiens with 8 samples.

Results

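The genes described here encode 8 proteins that build new centrioles: CEP192, CEP152, CEP63, STIL, SASS6, CEP135, CENPJ and CCP110. They were taken by symbol from the gene table of HT29 cells, which lists 38148 genes, and 8 of 8 were found there and stood above the limit on low values. HT29, a line of human colorectal cancer cells, carries an activated BRAF, and selumetinib is an inhibitor of MEK, the kinase that activates ERK1/2. The cells were either left untreated or kept in 1 μM selumetinib for 24 h, glyoxal-fixed, then stained for the protein cyclin B1 (the product of CCNB1, which builds up in G2), sorted by this stain into a negative and a positive fraction, and profiled by mRNA-seq of poly(A) RNA. The study asked which genes are expressed when cells pass through the cell cycle in the presence of the inhibitor. Each fraction of each treatment gave 2 libraries, which makes 4 groups named here by treatment and by the sign of CCNB1 (treated meaning selumetinib), and no vehicle is named for the untreated cells. The labels do not say whether the libraries of a group came from separate cultures, so p-values measure only the spread between these libraries, which may be technical.

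The submitters' labels disagree with each other. Every library, 8 of 8, has a title that gives the other treatment and the other fraction than its short description, and the medium label sides with the title. Groups follow the descriptions, whose names head the columns of the table. If the titles were right instead, the response in CCNB1-negative cells and that in CCNB1-positive cells would trade places with their signs changed, as would the differences between fractions of untreated and treated cells, whereas the difference between the responses would keep its value and sign. CCNB1, the gene of the protein used for the sort, had log2 values of 11.66 and 12.01 (untreated) and 7.92 and 7.22 (treated) in the negative fraction, and of 13.79 and 14.05 (untreated) and 12.76 and 12.53 (treated) in the positive fraction, so its mRNA was higher in the fraction described as positive under each treatment. Under the titles it would be lower in the positive fraction under each treatment. The labels also name RPMI-1640 as the medium, whereas the methods name McCoy's 5A for HT29.

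Recovered reads on genes ranged from 12696860 to 23916160 per library, and the treated CCNB1-negative libraries were the shallowest (12696860 and 13987432 reads). Replicates differed by more than sampling noise in each group. Mitochondrial transcripts and MALAT1 together took 4.745% to 8.15% of reads in untreated libraries and 15.01% to 17.66% in treated ones. Of 11 colorectal epithelial markers, 10 or 11 stood at 1 RPM (reads scaled to library size) or more in each group, and they summed to between 6800 and 13000 RPM in each library. Of 8 markers of blood, endothelial and stromal cells, 1 or 2 did so in each group, and they summed to between 7.28 and 18.5 RPM. Among the latter, CD3E and COL1A2 were at 0 in both untreated CCNB1-negative libraries, CD3E and DCN in both treated CCNB1-negative libraries and COL1A2 in both treated CCNB1-positive libraries.

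Each cell cycle, a single new centriole forms beside each existing one. CEP192 and CEP152, with CEP63 as a partner of CEP152, bring the kinase PLK4 to the wall of the parent centriole, where PLK4 phosphorylates STIL and STIL recruits SASS6, the protein of the radially symmetric cartwheel that seeds the new centriole. CEP135 joins the cartwheel to the centriole wall, CENPJ (also called CPAP) lengthens the centriolar microtubules, and CCP110 caps the distal end, limiting length and holding back the growth of a cilium. Formation starts around the entry into S phase and elongation goes on through G2, and STIL and SASS6 proteins are removed at the exit from mitosis.

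Promoter sequences were taken from the RefSeq promoter table for GRCh38.p14 as the 250 bases before each annotated start. They were available for 8 of 8 genes, with a second start for CEP63, 9 promoters in all. Words of the kinds bound by cell cycle regulators were searched on both strands: an E2F type (TTTCCCGC, TTTCGCGC, TTTGCCGC or TTTGGCGC), a CHR type (TTTGAA or TTCGAA) and the CCAAT box (CCAAT). Among 35116 promoters of this length, 2.79% held the first, 14.3% the second and 32.0% the third, and the words of different types did not share bases in the sequences printed here. The promoters of STIL and CEP192 are printed because they hold matches, and those of SASS6 and CENPJ because these genes had the largest differences in treated CCNB1-negative cells and hold none. Capitals mark the matched words, and each sequence runs 5′ to 3′ on the strand of its gene.

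STIL, chr1:47314148-47314397, minus strand: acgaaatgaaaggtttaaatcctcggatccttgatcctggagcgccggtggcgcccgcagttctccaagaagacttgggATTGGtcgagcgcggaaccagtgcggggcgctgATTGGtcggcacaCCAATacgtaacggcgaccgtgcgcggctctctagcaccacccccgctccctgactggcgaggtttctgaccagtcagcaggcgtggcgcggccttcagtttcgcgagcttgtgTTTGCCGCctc

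CEP192, chr18:12991112-12991361, plus strand: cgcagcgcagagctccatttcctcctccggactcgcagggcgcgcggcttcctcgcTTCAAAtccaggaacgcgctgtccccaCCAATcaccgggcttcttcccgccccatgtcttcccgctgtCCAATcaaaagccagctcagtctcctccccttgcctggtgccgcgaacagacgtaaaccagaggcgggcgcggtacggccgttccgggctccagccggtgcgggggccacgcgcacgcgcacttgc

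SASS6, chr1:100132931-100133180, minus strand: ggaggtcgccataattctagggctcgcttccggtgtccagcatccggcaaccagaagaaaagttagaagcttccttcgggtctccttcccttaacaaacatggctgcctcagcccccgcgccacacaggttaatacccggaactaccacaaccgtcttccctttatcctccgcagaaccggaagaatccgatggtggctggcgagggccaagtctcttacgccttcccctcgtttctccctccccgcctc

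CENPJ, chr13:24922862-24923111, minus strand: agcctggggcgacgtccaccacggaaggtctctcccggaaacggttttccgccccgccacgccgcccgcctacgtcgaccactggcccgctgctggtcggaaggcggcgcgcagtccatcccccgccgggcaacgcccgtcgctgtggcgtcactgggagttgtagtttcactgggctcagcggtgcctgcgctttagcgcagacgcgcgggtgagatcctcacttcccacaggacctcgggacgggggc

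The STIL promoter held the E2F-type word TTTGCCGC 11 bases before the start and CCAAT boxes 171, 138 and 125 bases before it. In CEP192 a CHR-type word stood 194 bases before the start, with CCAAT boxes at 167 and 126 bases. CEP152 likewise had a CHR-type word, at 179 bases, and CCAAT boxes at 242 and 225 bases, and the first promoter of CEP63 had an E2F-type word at 80 bases. No word of these 3 types was found in the windows of SASS6, CEP135, CENPJ or CCP110. A match describes letters in a window of sequence and is not evidence of binding, and its absence says only that the letters are not in that window.

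Levels are given below as the deposited log2 values, log2 of reads after each library is scaled to the largest one, on which 1 RPM lies close to 4.58. Genes averaging 1 RPM or more, 14219 of them, were tested with limma on these values, and a gene was called at an adjusted p (Benjamini-Hochberg over all genes tested) under 0.05. In bulk libraries, fewer cells of a type and less RNA per cell cannot be told apart.

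The genes that recruit PLK4 are described first. CEP192 (ENSG00000101639, chromosome 18, 12991362 to 13125052, plus strand) stood at 10.88 and 10.50 in untreated CCNB1-negative, 11.26 and 10.96 in untreated CCNB1-positive, 10.89 and 10.80 in treated CCNB1-negative and 11.83 and 11.91 in treated CCNB1-positive libraries. The treated CCNB1-positive libraries were the highest, and the treated CCNB1-negative libraries lay close to the untreated ones of the same fraction. CEP152 (ENSG00000103995, chromosome 15, 48712928 to 48811146, minus strand) stood at 10.67 and 10.11, 10.63 and 10.27, 9.42 and 9.55, and 10.98 and 11.17 in the same order of groups. Its treated CCNB1-negative libraries were below every other library and its treated CCNB1-positive libraries above every other one. CEP63 (ENSG00000182923, chromosome 3, 134485721 to 134575017, plus strand) stood at 8.21 and 8.48, 8.62 and 8.64, 8.62 and 8.73, and 8.61 and 8.93, a range of under 1 log2 unit over all 8 libraries. The CEP63 gene shares 996 bases of position with ANAPC13 on the opposite strand (157 to 892 reads per library), and strand handling in the counting is not given in the sources used here, so part of its reads may belong to that gene.

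Of the cartwheel genes, STIL (ENSG00000123473, chromosome 1, 47250139 to 47314147, minus strand) stood at 9.74 and 9.27 in untreated CCNB1-negative, 10.09 and 9.98 in untreated CCNB1-positive, 8.40 and 8.46 in treated CCNB1-negative and 10.56 and 10.67 in treated CCNB1-positive libraries. The 4 groups of STIL did not overlap, with the lowest and the highest both under selumetinib. SASS6 (ENSG00000156876, chromosome 1, 100083563 to 100132955, minus strand) stood at 9.28 and 9.05, 9.16 and 9.15, 7.48 and 7.20, and 8.77 and 8.82. The treated CCNB1-negative libraries of SASS6 were the lowest, the treated CCNB1-positive libraries lay between them and the untreated ones, and both untreated fractions overlapped. SASS6 shares 909 bases with AC093019.2 on the same strand (28 to 314 reads per library), so its level is uncertain by the reads the counting could split between them. CEP135 (ENSG00000174799, chromosome 4, 55948871 to 56033363, plus strand) stood at 8.57 and 8.30, 8.73 and 8.46, 8.43 and 8.56, and 9.27 and 9.42, and its treated CCNB1-positive libraries alone stood above the other 3 groups, which overlapped.

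Among the genes of elongation and capping, CENPJ (ENSG00000151849, chromosome 13, 24882279 to 24922889, minus strand) stood at 10.01 and 9.60 in untreated CCNB1-negative, 10.35 and 10.07 in untreated CCNB1-positive, 7.77 and 7.58 in treated CCNB1-negative and 10.16 and 10.50 in treated CCNB1-positive libraries. In reads, these were 953 and 617, 1302 and 983, 139 and 113, and 1015 and 919. The treated CCNB1-negative libraries of CENPJ were far below all others, and the treated and untreated CCNB1-positive libraries overlapped. CCP110 (ENSG00000103540, chromosome 16, 19523811 to 19553408, plus strand) stood at 8.76 and 8.81, 8.57 and 8.49, 8.08 and 8.04, and 8.50 and 8.59. Its highest libraries were the untreated CCNB1-negative ones and its lowest were the treated CCNB1-negative ones.

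**Figure D1:**
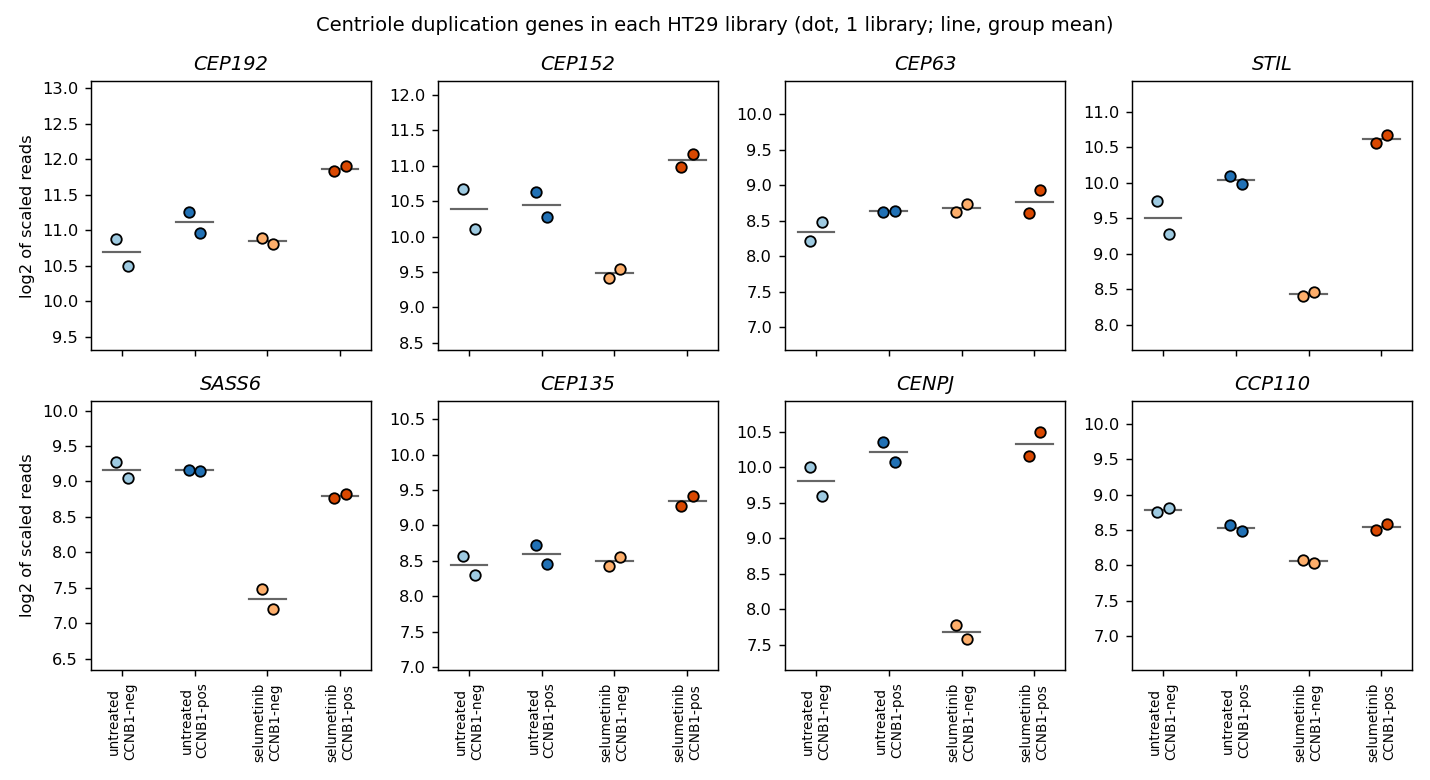
Deposited log2 value (scaled to the largest library, y axis) of each of the 8 centriole duplication genes in the 8 libraries, 1 panel a gene, with the 4 groups along the x axis, a point for each library and a bar at the group mean; the panels have y axes of equal span but different start. CENPJ, SASS6, STIL and CEP152 were lowest in treated CCNB1-negative libraries, whereas CEP192 and CEP135 were highest in treated CCNB1-positive libraries and CEP63 spanned 8.21 to 8.93.

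Per length of the MANE Select transcript, the order of the genes differed between groups. In RPKM, which scales reads to transcript length and library size, untreated CCNB1-negative cells had CEP152 at 10.3 ± 2.83 (SD, n = 2), CEP192 at 8.76 ± 1.71, CENPJ at 7.45 ± 1.55, SASS6 at 6.25 ± 0.739 and STIL at 6.14 ± 1.46, neighbours whose libraries overlapped, followed by CCP110 at 3.50 ± 0.0617, CEP135 at 2.60 ± 0.361 and CEP63 at 2.37 ± 0.291. The libraries of CEP135 and CEP63 overlapped each other, and those of CCP110 stood above both. Untreated CCNB1-positive cells had CEP192 at 11.7 ± 1.78 RPKM, overlapping CEP152 at 10.6 ± 1.88 and that in turn CENPJ at 9.75 ± 1.37, while the libraries of CCP110 (2.92 ± 0.134), CEP135 (2.89 ± 0.399) and CEP63 (2.85 ± 0.00518) overlapped at the lower end. In treated CCNB1-negative cells CEP192 was at 10.6 ± 0.312 RPKM and CEP152 at 5.93 ± 0.453 RPKM, CEP63, STIL and CEP135 lay between 2.97 and 3.26 RPKM with neighbours overlapping, CCP110 lay at 2.32 ± 0.0119 RPKM, and SASS6 (1.95 ± 0.239 RPKM) and CENPJ (1.85 ± 0.144 RPKM) overlapped at the bottom of the order. CENPJ, the third in both untreated groups, was thus the last there. The treated CCNB1-positive cells had CEP192 at 21.0 ± 0.942, CEP152 at 17.4 ± 1.8, STIL at 14.0 ± 0.839 and CENPJ at 11.4 ± 1.99 RPKM, all 4 without overlap between neighbours, and CCP110 was the lowest at 3.16 ± 0.164 RPKM, overlapping CEP63. Summed over the 8 genes, levels in RPM were 300 and 233 in untreated CCNB1-negative, 343 and 290 in untreated CCNB1-positive, 197 and 199 in treated CCNB1-negative and 450 and 505 in treated CCNB1-positive libraries.

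The first comparison asked how gene expression in CCNB1-negative cells differed between selumetinib and no treatment. CENPJ fell by 2.13 on the log2 scale (SE 0.19, 4.38-fold lower, adjusted p = 2.5e-07, limma). SASS6 fell by 1.82 (SE 0.18, adjusted p = 6e-07), and STIL by 1.07 (SE 0.17, adjusted p = 6.2e-05). Smaller falls were called for CEP152 (-0.91, SE 0.19, adjusted p = 0.00061) and CCP110 (-0.73, SE 0.17, adjusted p = 0.0013). CEP192 (0.15, 95% interval -0.20 to 0.50), CEP63 (0.33, -0.06 to 0.72) and CEP135 (0.06, -0.33 to 0.44) did not pass the test, and all 3 took the opposite sign with limma-voom (-0.21, -0.03 and -0.31). So 5 of 8 genes were lower and 0 higher, where 35.8% of all genes tested were called lower, 38.2% higher and 74.1% either way. The median difference of the 8 genes was -0.82 and that of all genes 0.05. Treated and untreated libraries did not overlap for 6 of the 8 genes, against 86.4% of all genes.

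The fall of CENPJ, SASS6, STIL, CEP152 and CCP110 was called under every scaling tried. With TMM scaling in limma-voom the median of all genes moved to -0.32 and with scaling to nuclear genes without MALAT1 to 0.36, shifts that all genes share. Relative to the median of all genes, the median of the 8 genes was -0.87 as tested here, -0.80 with quantile normalization, -0.61 with a filter of 10 RPM and -1.30 with no filter. Of all calls, 51.6% were higher under the main scaling, 47.4% with quantile normalization, 63.1% with nuclear scaling and 39.2% with limma-voom. Under the scaling to nuclear genes, CEP192 (0.47, adjusted p = 0.026) and CEP63 (0.64, adjusted p = 0.006) were also called, as higher.

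The fall in CCNB1-negative cells moved with markers of the cell cycle. Summed levels of 5 S-phase genes (CCNE2, MCM5, PCNA, CDC6 and SLBP) were 896 to 1020 RPM in untreated and 72.1 to 86.0 RPM in treated CCNB1-negative libraries, and those of 5 G2 and M genes (CCNB1, CDK1, TOP2A, CCNB2 and CDC20) were 688 to 765 and 73.0 to 95.8 RPM. All 10 markers were above 1 RPM in both groups. The part of cell cycle distribution in the differences of the centriole genes was not tested.

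The second comparison asked the same of CCNB1-positive cells. Here CEP192 rose by 0.76 (SE 0.16, adjusted p = 0.0011, limma), CEP135 by 0.75 (SE 0.18, adjusted p = 0.0023), CEP152 by 0.62 (SE 0.19, adjusted p = 0.01) and STIL by 0.58 (SE 0.17, adjusted p = 0.0088). SASS6 (-0.36, 95% interval -0.74 to 0.02), CENPJ (0.12, -0.28 to 0.52), CCP110 (0.01, -0.35 to 0.37) and CEP63 (0.14, -0.25 to 0.53) did not pass, and the latter 3 took the opposite sign with limma-voom (-0.25, -0.35 and -0.23). Thus 4 of 8 genes were called higher and 0 lower, where 38.0% of all genes were called higher and 27.3% lower, 65.3% either way. Groups did not overlap for 5 of the 8 genes, against 85.8% of all genes.

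These rises depended on the scaling. The median of all genes was 0.17 in this comparison, and relative to it CEP192 was at 0.59, CEP135 at 0.58, CEP152 at 0.46, STIL at 0.41 and SASS6 at -0.53. Under limma-voom, which put the median of all genes at -0.19, only CEP192 was still called higher (0.39, adjusted p = 0.046), while CEP135 (0.38, adjusted p = 0.052), CEP152 (0.26, adjusted p = 0.21) and STIL (0.22, adjusted p = 0.26) were not, and SASS6 was called lower (-0.73, adjusted p = 0.001). SASS6 was also called lower with quantile normalization (-0.58, adjusted p = 0.012). Without the second untreated CCNB1-positive library, CEP152 was at 0.45, STIL at 0.53, CEP192 at 0.61 and CEP135 at 0.61. Without the second treated CCNB1-positive library, these genes were at 0.53, 0.53, 0.72 and 0.68 in the same order. Both fits leave 1 library in a group, so only effect sizes are given for them. Of all calls in this comparison, 58.1% were higher under the main scaling, 47.5% with quantile normalization, 71.9% with nuclear scaling and 40.0% with limma-voom.

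In CCNB1-positive libraries the G2 and M markers summed to 2800 to 3180 RPM without and 2400 to 2580 RPM with selumetinib, and the S-phase markers to 391 to 406 and 150 to 155 RPM. Of the G2 and M markers, CCNB1 (-1.27, adjusted p = 0.00014, limma), CDK1 (-1.03, adjusted p = 0.0021), CDC20 (-0.66, adjusted p = 0.0023) and CCNB2 (-0.65, adjusted p = 0.0084) were called lower. TOP2A (0.12, adjusted p = 0.62) was not called. Of the S-phase markers, MCM5, PCNA, CDC6 and SLBP were called lower (-1.74 to -1.20) and CCNE2 (0.08) was not. The part of these markers in the rises of CEP192, CEP135, CEP152 and STIL was not tested.

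**Figure D2:**
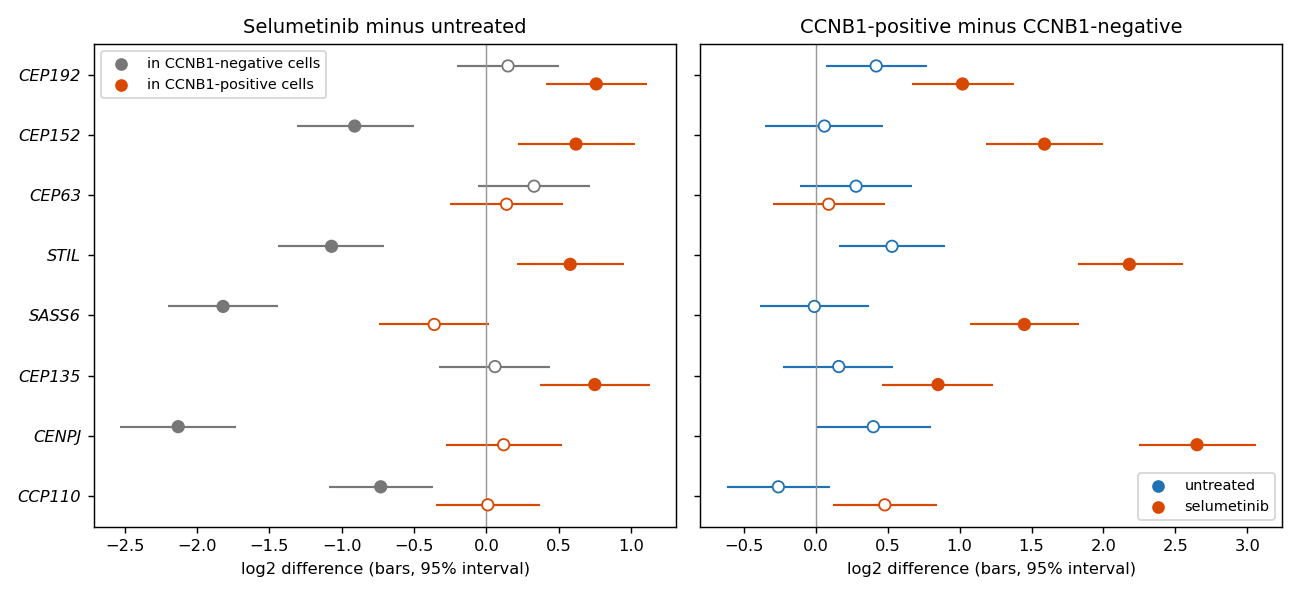
Log2 difference between groups (x axis) for each of the 8 genes (y axis) in the comparisons between treatments (left, coloured by fraction) and between fractions (right, coloured by treatment), with 95% intervals from limma; filled points were called at an adjusted p under 0.05 and open points were not. In treated against untreated CCNB1-negative cells CENPJ reached -2.13 and SASS6 -1.82, whereas in treated cells CENPJ was 2.65 and STIL 2.18 higher in the CCNB1-positive fraction.

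The difference between the responses of the fractions was tested by the interaction. CENPJ responded 2.25 log2 units higher in CCNB1-positive than in CCNB1-negative cells (SE 0.26, adjusted p = 7.1e-05, limma), STIL 1.65 (SE 0.24, adjusted p = 0.00053), CEP152 1.53 (SE 0.27, adjusted p = 0.0026) and SASS6 1.46 (SE 0.25, adjusted p = 0.0022). The values of CCP110 (0.74, adjusted p = 0.096), CEP135 (0.69, adjusted p = 0.14), CEP192 (0.60, adjusted p = 0.16) and CEP63 (-0.19, adjusted p = 0.72) did not pass. These 4 of 8 genes compare with 4.99% of all genes called in this direction, 0.345% in the other and 5.33% in either (93.5% of calls higher, against 70.9% with quantile normalization), and the median was 1.10 for the 8 genes and 0.11 for all genes. The 4 calls held under every scaling. Every S-phase and G2 and M marker listed above was also called higher in this test. Their values ran from 1.36 for SLBP (adjusted p = 0.0014, limma) to 3.68 for CCNE2 (adjusted p = 3e-05, limma). The part of cell cycle distribution in these differences was not tested.

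Between the fractions of untreated cells, none of the 8 genes was called by limma in the model without a replicate block. The values were 0.53 for STIL (95% interval 0.16 to 0.90, adjusted p = 0.14), 0.42 for CEP192 (adjusted p = 0.24), 0.40 for CENPJ (adjusted p = 0.37), 0.28 for CEP63, 0.16 for CEP135, 0.06 for CEP152, -0.01 for SASS6 (0.06 with limma-voom) and -0.26 for CCP110. In this comparison 1.36% of all genes were called higher, 1.51% lower and 2.87% either way, and 3 of the 8 had an unadjusted p under 0.05 by limma and 3 by limma-voom. With a replicate block by pair of fractions, STIL (adjusted p = 0.0044, limma), CEP192 (adjusted p = 0.0055) and CENPJ (adjusted p = 0.042) were called. That block called 13.5% of all genes. Libraries of the fractions did not overlap for 5 of the 8 genes, against 44.3% of all genes. The median was 0.22 for the 8 genes and -0.06 for all genes, and higher calls made up 47.5% of all calls under the main scaling, 64.8% with quantile normalization and 60.5% with limma-voom.

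Between the fractions of treated cells, CENPJ was 2.65 higher in CCNB1-positive cells (SE 0.19, 6.29-fold, adjusted p = 1.3e-07, limma) and STIL 2.18 higher (SE 0.17, 4.54-fold, adjusted p = 4.3e-07). CEP152 (1.59, adjusted p = 4e-05), SASS6 (1.45, adjusted p = 4.9e-05), CEP192 (1.02, adjusted p = 0.00061) and CEP135 (0.85, adjusted p = 0.005) were also higher. CCP110 (0.48, 95% interval 0.12 to 0.84, adjusted p = 0.054) and CEP63 (0.09, adjusted p = 0.75) did not pass. These were 6 of 8 genes, and 0 lower, where 13.8% of all genes were called higher, 7.87% lower and 21.6% either way, and higher calls made up 63.6% of all calls, against 47.9% with quantile normalization and 53.2% with nuclear scaling. The libraries of the fractions did not overlap for 7 of the 8 genes, against 63.9% of all genes. CCP110 lay near the threshold and was called with limma-voom (0.55, adjusted p = 0.039) and with a filter of 10 RPM (adjusted p = 0.044). The comparisons share libraries with one another, so their calls are not separate evidence.

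Ratios between these genes within a library do not depend on how libraries are scaled. CENPJ had 54.7% and 53.7% as many reads as CEP192 in untreated CCNB1-negative libraries and 52.9% and 53.9% in untreated CCNB1-positive ones, against 11.5% and 10.7% in treated CCNB1-negative and 31.3% and 37.7% in treated CCNB1-positive libraries. This ratio was therefore lower in every treated library than in every untreated one, in both fractions. STIL was at 45.4% and 42.7%, 44.4% and 50.7%, 17.9% and 19.8%, and 41.5% and 42.4% of CEP192 in the same order, so that its treated CCNB1-positive libraries lay just under the untreated range. SASS6 was at 32.8% and 36.7%, 23.3% and 28.4%, 9.44% and 8.27%, and 11.9% and 11.8%. Against CEP192, SASS6 thus stayed low in both treated fractions, and its lowest untreated library was above all 4 treated ones. CEP152 was at 86.1% and 76.7%, 64.3% and 62.0%, 36.1% and 41.9%, and 55.2% and 60.0%, and CCP110 at 23.0% and 31.1%, 15.5% and 18%, 14.2% and 14.7%, and 9.91% and 10%. CEP135 kept to between 16.9% and 21.9% of CEP192 in all 8 libraries, and CEP63 lay at 10.7% and 12.7% in treated CCNB1-positive libraries and between 15.7% and 24.7% elsewhere. A ratio shows unequal change and not which of its genes changed.

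**Figure D3:**
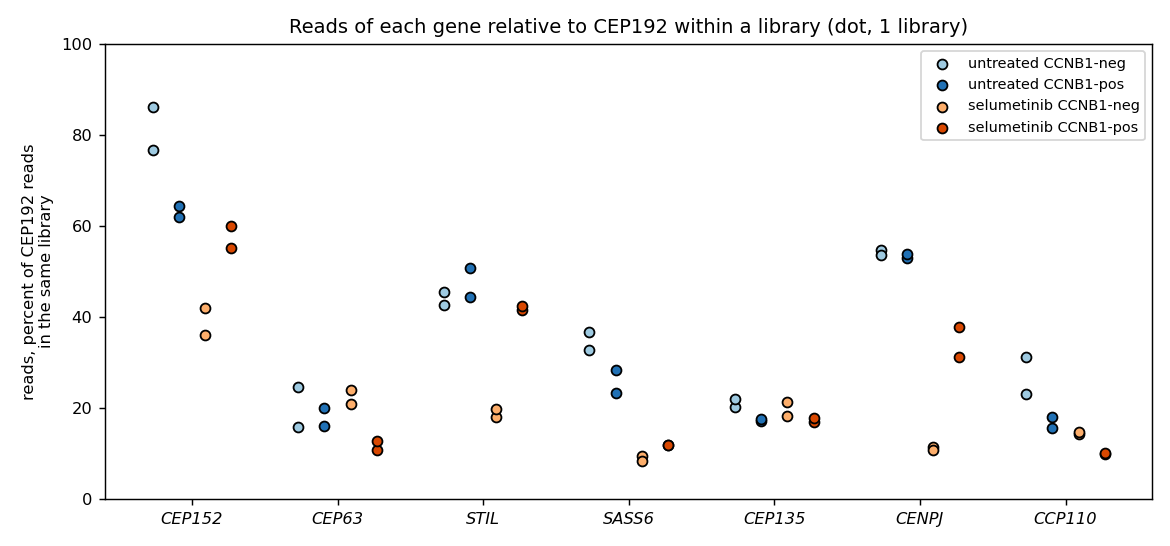
Reads of each gene as a percentage of the reads of CEP192 in the same library (y axis, linear from 0) for the 7 other genes (x axis), with a point for each library coloured by its group. SASS6 lay at 8.27% to 11.9% in the 4 treated libraries and at 23.3% to 36.7% in the 4 untreated ones, whereas CEP135 lay at 16.9% to 21.9% throughout.

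The 8 genes did not share 1 pattern over the libraries. Pearson correlations of log2 values over the 8 libraries, which share groups and scaling and are given as a description, were 0.97 for CEP192 with CEP135, 0.97 for CEP152 with STIL, 0.94 for STIL with CENPJ, 0.94 for SASS6 with CENPJ and 0.93 for SASS6 with CCP110. They were 0.07 for CEP192 with CCP110, -0.37 for CEP63 with SASS6 and -0.44 for CEP63 with CCP110. Tested genes with clone, LINC or LOC symbols were left out of the search for similar genes. Among the rest, those most like CENPJ were TICRR (r = 0.999), a replication origin firing factor, SPC24 (0.996), a kinetochore subunit, and NEIL3 (0.995), a DNA glycosylase. Those most like SASS6 were CENPM (0.997), a centromere protein, TK1 (0.995), the cytosolic thymidine kinase, and PGP (0.995), and those most like CCP110 were TCF19 (0.994), BARD1 (0.989), the partner of BRCA1, and DSN1 (0.988), a kinetochore protein. STIL was most like CCDC150 (0.993), RTKN2 (0.992) and KIF18B (0.991), a mitotic kinesin, and CEP152 most like KIF24 (0.993), C21orf58 (0.983) and GEN1 (0.980), a Holliday junction resolvase. CEP192 was most like MYEF2 (0.986), FAM50A (0.981) and IFT122 (0.980), a subunit of the intraflagellar transport machinery. CEP135 was most like CEP192 (0.972), UGT2B7 (0.965) and FAM50A (0.957), and CEP63 most like C6orf99 (0.962), IRX2 (0.927) and RAB24 (0.920), at each rank the lowest values of the 8.

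Another 40 centriole genes, listed for comparison, were all tested. In CCNB1-negative cells 17 of them were lower under selumetinib and 9 higher, with a median of -0.22. Of all genes, 35.8% were called lower, 38.2% higher and 74.1% either way, with a median of 0.05. For the 40 genes limma-voom gave 26 lower and 3 higher and nuclear scaling 12 lower and 11 higher. Over all genes these scalings called 75.7% (39.2% of calls higher) and 73.4% (63.1% higher). PLK4, the kinase that starts duplication, stood at 10.41 and 10.20 in untreated CCNB1-negative, 10.63 and 10.60 in untreated CCNB1-positive, 6.97 and 6.99 in treated CCNB1-negative and 9.93 and 10.26 in treated CCNB1-positive libraries. It fell by 3.32 in CCNB1-negative cells (SE 0.16, adjusted p = 2.2e-09, limma) and by 0.52 in CCNB1-positive cells (adjusted p = 0.012), and its responses differed by 2.80 (adjusted p = 4.8e-06). The fall of PLK4 in CCNB1-negative cells was larger than that of each of the 8 genes, a contrast between genes that was not tested. TUBG1, the gamma-tubulin of microtubule nucleation, whose reads are uncertain because of its near-identical copy TUBG2, was lower in both fractions (-2.71, adjusted p = 5.6e-09, and -1.48, adjusted p = 2.6e-06), with responses that differed by 1.23 (adjusted p = 0.0024). OFD1, a protein of distal centrioles, was higher in both (1.26, adjusted p = 1.2e-05, and 1.10, adjusted p = 6.8e-05), and CEP164, of the distal appendages, was higher in CCNB1-negative cells (1.13, adjusted p = 3.6e-05) and at 0.39 in CCNB1-positive cells (adjusted p = 0.055).

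In CCNB1-positive cells 12 of the 40 were higher under selumetinib and 4 lower, with a median of 0.07. Of all genes, 38.0% were called higher, 27.3% lower and 65.3% either way, with a median of 0.17. The split of the 40 turned with the scaling, to 4 higher and 18 lower with limma-voom, and was 17 higher and 2 lower with nuclear scaling. Over all genes, higher calls made up 40.0% and 71.9% of calls under these scalings. Those called, 16 in all, became 10 at an adjusted p under 0.01 and 3 with a 2-fold requirement. Over all genes these settings called 52.5% and 34.3%. CEP97, the partner of CCP110 at the distal end, rose by 1.14 (adjusted p = 0.00025, limma) and by 0.70 in CCNB1-negative cells (adjusted p = 0.0065). CETN3, a centrin, fell by 0.89 (adjusted p = 0.00071). Between fractions, 7 of the 40 stood higher in the positive one when untreated (median 0.17) and 22 when treated (median 0.73), with 0 lower in either in the model without a replicate block. Of all genes, 1.36% were higher and 1.51% lower when untreated (median -0.06), and 13.8% and 7.87% when treated (median 0.02). PLK4 differed by 3.12 between treated fractions (adjusted p = 4.8e-09, limma). The 7 became 4 with no filter and 5 with quantile normalization, where 0.825% and 1.72% of all genes were called, against 2.87% in the main model. The responses of 8 of the 40 differed between fractions, all higher in CCNB1-positive cells in the model without a replicate block, with a median of 0.39. Over all genes, 4.99% of such differences were called higher in CCNB1-positive cells and 0.345% lower, with a median of 0.11. KIF24, a kinesin that binds CCP110 and, with clone symbols left out, the gene nearest to CEP152 in its pattern, was singled out after its values were seen: it was lower in treated CCNB1-negative cells (-1.28), higher in treated CCNB1-positive cells (0.79), and its responses differed by 2.07.

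**Figure D4:**
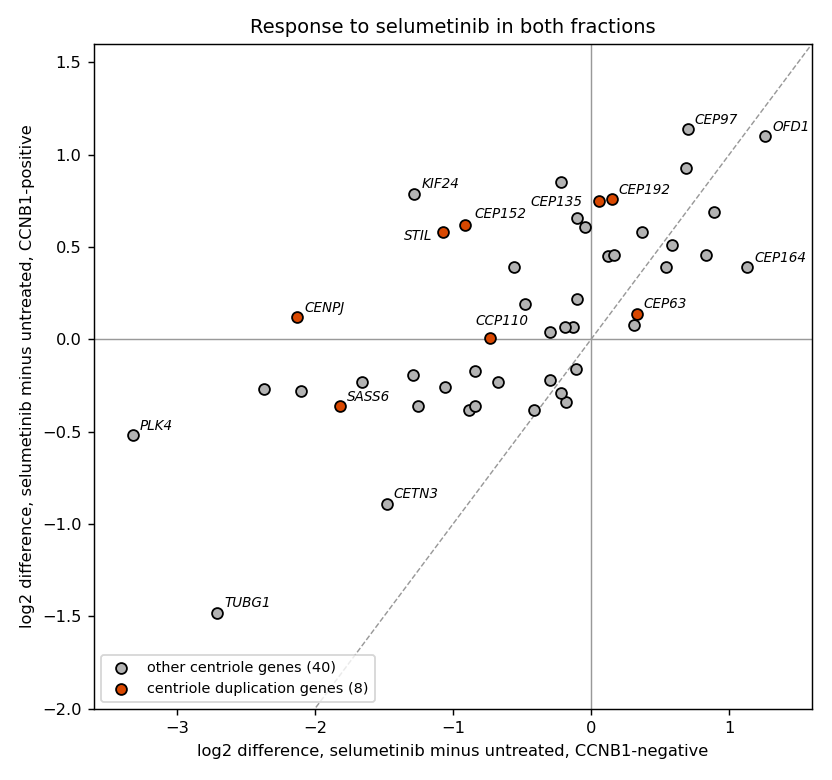
Log2 difference of treated minus untreated cells in the CCNB1-negative fraction (x axis) and in the CCNB1-positive fraction (y axis) for the 8 centriole duplication genes (orange) and 40 other centriole genes (grey); the dashed line marks equal responses. CENPJ (-2.13, 0.12), STIL (-1.07, 0.58) and CEP152 (-0.91, 0.62) lay above the line, as did PLK4 (-3.32, -0.52), whereas CEP63 (0.33, 0.14) lay just under it; with limma-voom the second value of CENPJ and both values of CEP63 turned negative.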

How the data were processed

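mRNA-seq libraries of sorted HT29 cells were analysed, 2 in each of 4 groups. Per the submitters' processing notes, Trim Galore 0.5.0 and HISAT2 2.1.0 were used for trimming and for mapping to GRCh38, and genes were quantified in SeqMonk. The unit of the table the authors deposited is log2 of reads, with libraries brought to the size of the largest, and an unread gene has the value of 0.9 reads. 2 raised to these values, less 1 constant a library, gave whole reads (within 0.02) for 100% of genes with a read, and these reads, which carry no molecular identifiers, set the depth. All 8 value columns were used and 0 were set aside. The authors' own test was DESeq2.

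The planned design allowed for several units, and its log2 part was used. Genes averaging 1 RPM or more over the 8 libraries were tested with limma 3.58.1 (mean-variance trend, 1 coefficient a group, R 4.3.3), with Benjamini-Hochberg adjustment over 14219 genes, and the script was tested on simulated data. Other steps used Python 3.11.15, pandas 2.3.3, numpy 2.4.6, scipy 1.17.1 and matplotlib 3.10.9. Transcript lengths came from GENCODE 44 and promoters from RefSeq.

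Genes named are the 8 members, the 3 genes most correlated with each (clone, LINC and LOC symbols left out), PLK4, the 2 largest rises and falls per treatment comparison among 40 other centriole genes, CCNB1 and genes overlapping a member. Members and lists were chosen with earlier results of these data known. Alternatives were no filter, a filter of 10 RPM, quantile normalization, nuclear scaling, a pseudocount of 0.1 RPM, limma-voom with TMM on recovered reads, replicate blocks, a model of only the groups compared, an adjusted p under 0.01, the omission of each library, and a 2-fold requirement.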

Additional observations from a re-analysis of the deposited data

Results flagged for a closer look

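Of the 8 genes, 4 had responses to selumetinib that differed between the sorted fractions by the interaction test in limma (CCNB1-positive minus CCNB1-negative). The difference of log2 responses was 2.25 for CENPJ (adjusted p = 7.1e-05), 1.65 for STIL (adjusted p = 0.00053), 1.53 for CEP152 (adjusted p = 0.0026) and 1.46 for SASS6 (adjusted p = 0.0022). Over all genes, 5.33% were called in this test and 4.99% as higher, and with a replicate block by pair of fractions 27.1% of all genes and 7 of the 8 were called. The S-phase and G2 and M markers were all called higher in the main model too, by 1.36 to 3.68. With 2 libraries in each group, no group was large enough to test for a library far from the others.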

How the results depend on the processing

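Over all alternatives, 736 values of the 8 genes were recomputed, of which 682 kept their direction and their side of the threshold, 15 lost and 14 gained a call, and 25 changed sign, none of the last a called value. A change of filter, threshold or replicate block, or a model of only the groups compared, leaves each log2 difference as it was. Leaving out a library that is not in a comparison does the same. Such values could change their call but not their sign, so the count that kept its direction was in part fixed beforehand. With quantile normalization the sign changed for CEP135 in treated against untreated CCNB1-negative cells (-0.07), CEP63 (-0.13) and CCP110 (-0.31) in treated against untreated CCNB1-positive cells, SASS6 between untreated fractions (0.03) and CEP63 between treated fractions (-0.03). With limma-voom it changed for CEP192 (-0.21), CEP63 (-0.03) and CEP135 (-0.31) in CCNB1-negative cells, for CEP63 (-0.23), CENPJ (-0.25) and CCP110 (-0.35) in CCNB1-positive cells, and for SASS6 between untreated fractions (0.06). With 1 library left out, ranges that crossed 0 were -0.04 to 0.35 for CEP192 and -0.07 to 0.19 for CEP135 in CCNB1-negative cells, -0.02 to 0.30 for CEP63, -0.05 to 0.29 for CENPJ and -0.03 to 0.06 for CCP110 in CCNB1-positive cells, -0.12 to 0.10 for SASS6 and -0.22 to 0.34 for CEP152 between untreated fractions, and -0.07 to 0.25 for CEP63 between treated fractions.

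The 5 genes called in CCNB1-negative cells became 3 when a 2-fold change was required (47.5% of all genes called, against 74.1%). The 4 called in CCNB1-positive cells (65.3% of all genes) became 2 with limma-voom (68.5%) and 0 with the 2-fold requirement (34.3%, and 4 members at an unadjusted p under 0.05). In CCNB1-negative cells CEP152 (1.88-fold) and CCP110 (1.66-fold) fell short of 2-fold. So did every call in CCNB1-positive cells, the largest being CEP192 at 1.69-fold. The cause of the other changes was not tested.

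Deviations of same-numbered replicates correlated at 0.352 and 0.428 between the fractions of a treatment and at -0.088 to 0.082 otherwise. The labels and methods name no pairing of libraries, so the main models hold no block. Whether the fractions of a treatment were paired was not tested. With a replicate block by pair of fractions, the share of all genes called rose from 2.87% to 13.5% between untreated fractions and from 5.33% to 27.1% for the difference of responses. Under it 3 of the 8 genes were called between untreated fractions (CEP192, adjusted p = 0.0055, STIL, adjusted p = 0.0044, and CENPJ, adjusted p = 0.042, by limma) and 7 for the difference of responses, where CEP192 (adjusted p = 0.0029), CEP135 (adjusted p = 0.008) and CCP110 (adjusted p = 0.008) were added. CCP110 was added between treated fractions by both this block (adjusted p = 0.0067) and a block by replicate number (adjusted p = 0.038), which changed no other call of the 8 genes. Of the 40 other centriole genes, the block by pair of fractions called 11 higher and 4 lower between untreated fractions, 26 higher and 2 lower between treated fractions, and 20 for the difference of responses (19 higher). Over all genes it called 13.5% (35.1% of calls higher), 46.9% (57.6% higher) and 27.1% (71.1% higher) in the same order.

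Depth bounds the precision of the least read values, CENPJ and SASS6 in treated CCNB1-negative cells, at 87 to 139 reads a library.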
